A study of Mus musculus with 4 samples.

Results

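Cholesterol and fatty acid synthesis was followed through 31 named genes in cultured stem cells of mouse skin. The genes were found by symbol among the array's non-control probes, with Msmo1 and Sc5d also searched under older symbols. They had 45 of the 39429 probes, each spotted once, and all 31 were among the 17376 genes tested. Of these probes, 44 passed the filter on dim spots, which asks for a signal well above background on all 4 arrays in at least 1 of the RNAs compared. The exception was a second probe of Fdft1, above background on 2 arrays in one RNA and on 1 array in the other. The probe standing for each of the 31 genes was well above background in both RNAs on every array, so no gene was let in by a signal in only one of them.

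Both RNAs came from skin epithelial cells of adult C3H/HeN mice, that carried CD49f (integrin alpha 6) and CD34 on their surface, a pair of markers for the stem cells in the bulge of the hair follicle. The 0p RNA is labelled as that of CD49f+ CD34+ cells sorted from primary skin epithelial cells. The 15p RNA is that of CD49f+ CD34+ cells after the 15th serial culture, each culture lasting 10 days with the growth factor Wnt-3a on 60-mm dishes coated with type I collagen and ending in a new sort. The labels enter Wnt-3a as a treatment for either RNA, and they do not settle if 0p cells met it in culture before RNA extraction. Each of the 2 biological replicates was hybridised on a pair of 2-colour arrays, once with 15p in the red dye Cy5 and once, in the dye swap, with 15p in the green dye Cy3. Nothing in the labels says whether the replicates were separate animals or cultures, so p-values of the main test measure the spread between these 2 samples, which may be technical. These are bulk RNAs, in which fewer cells of a type and less RNA per cell cannot be told apart.

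Cells make cholesterol from acetyl-CoA through mevalonate, isoprenoid units, squalene and lanosterol, and fatty acids from the same precursor through malonyl-CoA. The transcription factors SREBP1 and SREBP2, encoded by Srebf1 and Srebf2, switch on the genes of both routes. They are held in the endoplasmic reticulum with their escort SCAP by the INSIG proteins when sterols are plentiful, and released to the nucleus after cleavage in the Golgi when sterols are scarce. In skin these lipids supply dividing keratinocytes with membrane, and the barrier of the outer epidermis and the sebum of sebaceous glands are built from them.

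Between 55.5% and 68.3% of spots were well above background in either dye of an array, and 0 spots were saturated. The number of arrays limits the precision. The arrays are called 1A (replicate 1, 15p in Cy5), 1B (its dye swap, 15p in Cy3), 2A (replicate 2, 15p in Cy5) and 2B (its dye swap). Array 2A stood apart from the others. It had 108 genes beyond 2-fold against 0 to 4 on each of the other arrays, and the SD of its log2 ratios over all genes was 0.289 against 0.129 to 0.140. After every ratio was turned to 15p over 0p, arrays with exchanged dyes were negatively correlated across genes, with Pearson's r of -0.554 in replicate 1 and -0.397 in replicate 2 over all genes tested. Genes are not independent replicates, and this is a description. Every direction below rests on the dyes as labelled: were the dye orders of the swap arrays recorded wrongly, the ratio and the dye coefficient described below would exchange their meaning, which was not tested. Because the swapped arrays opposed each other, a ratio is given below on each array before its mean. Values stand in the order 1A, 1B, 2A, 2B. A positive log2 ratio means more signal from 15p RNA, and an SD is over the 2 replicate means (n = 2).

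None of the 31 genes passed the test in either direction. No gene on the array did either (0% of 17376 higher and 0% lower, limma with Benjamini-Hochberg adjustment at 0.05), and the lowest adjusted p of any gene was 0.749. Before adjustment, a p under 0.05 was reached by 508 genes with a positive ratio (2.92%) and by 588 with a negative one (3.38%), against 1 and 0 of the 31. The count among the 31 moved with the processing. It was 6 positive and 0 negative under median centring, 3 and 0 without the filter on dim probes, 2 and 0 with the mean of kept probes, and 0 and 0 with processed signals or the value table. In the fit of separate channels it was 0 and 2, the latter Lbr and Scd2. Over all genes, in both directions together, 1096 (6.31%) had such a p in the main fit and 1402 under median centring. The number was 2232 without the filter, where more genes were tested, and 968 with the mean of kept probes. It was 918 with processed signals, 911 with the value table and 781 with separate channels. A fit of separate red and green channels called 0 genes too. A fit of the 4 arrays with the replicate as a block and a term for dye called 7 genes higher (0.0403%) and 53 lower (0.305%), none of them among the 31. The error of that fit leaves out the difference between the replicates, and limma set a single variance for all genes.

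The mean log2 ratios of the 31 genes ran from -0.13 for Scd2 and Lbr to 0.19 for Srebf2, with a median of 0.024 against 0.0025 over all genes. Without 1A the median of the 31 was 0.015, without 1B 0.014, without 2A 0.010 and without 2B 0.0080. Means were positive in 18 of the 31, against 51.4% of all genes. Under the scanner software's processed signals and under median centring, Hsd17b7 and Sc5d, both nearest 0, took the other sign. The 95% intervals of all 31 lay within a 1.5-fold difference in either direction, and their half-width had a median of 0.124 against 0.123 over all genes. That width rests mostly on a variance limma drew from all genes (prior degrees of freedom 8.88, residual 1). No member was beyond 2-fold on any array. Only Lbr had the same sign on all 4 arrays, negative, where 3.11% of all genes were negative and 3.67% positive on all 4.

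**Figure D1:**
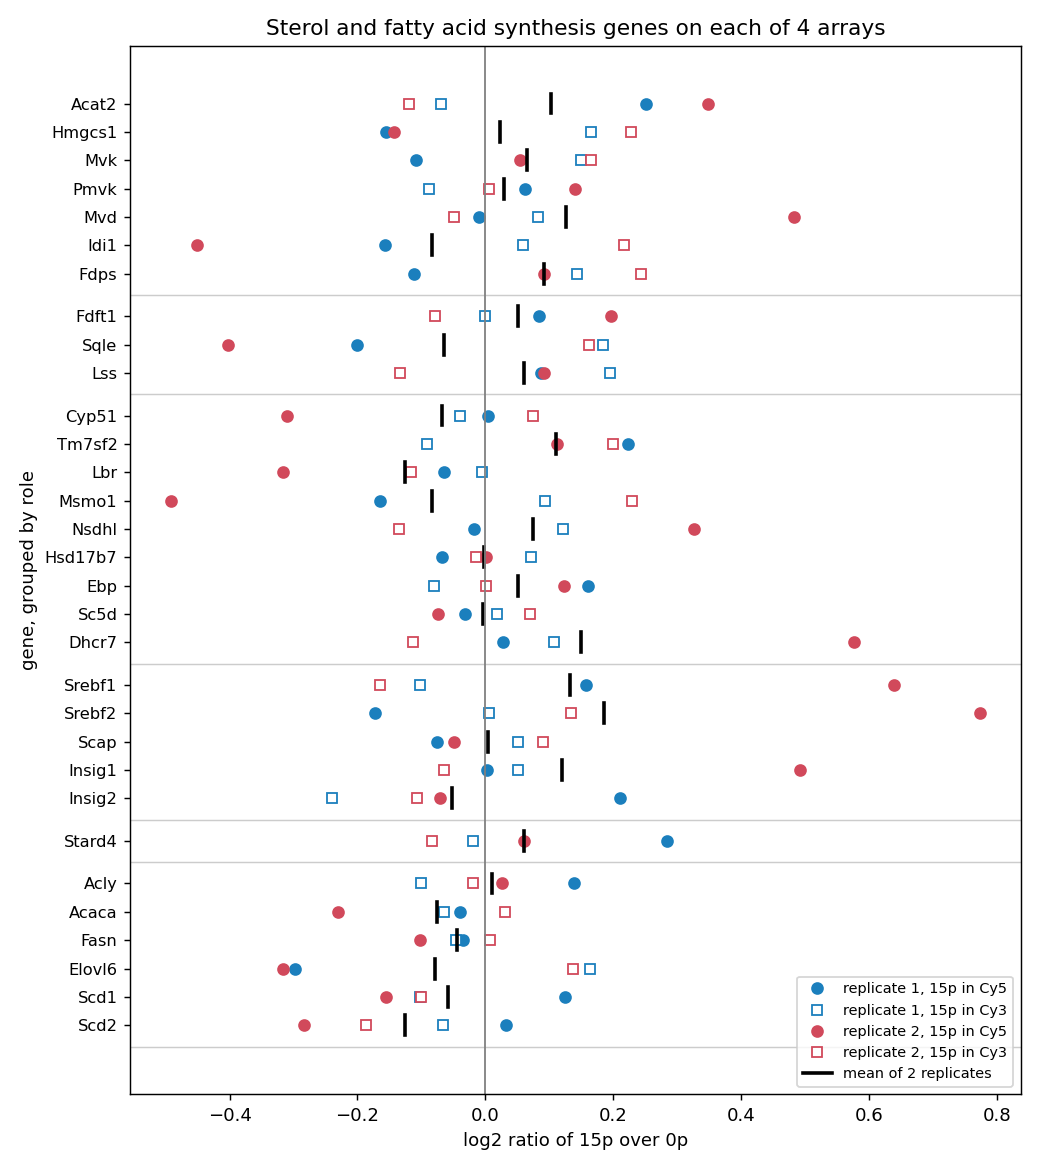
Log2 ratio of 15p over 0p (x axis) for each of the 31 genes (y axis, grouped by role from the mevalonate pathway at the top to fatty acid synthesis at the bottom). Filled circles are arrays with 15p in Cy5, open squares their dye swaps, blue replicate 1, red replicate 2, and the black bar the mean of the 2 replicates (n = 2). Filled and open symbols fall on opposite sides of 0 for many genes, and the red circles reach farthest, to 0.77 for Srebf2 and -0.49 for Msmo1.

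The first steps of the sterol route make mevalonate and turn it into isoprenoid units. Acat2 joins acetyl-CoA units, Hmgcs1 makes HMG-CoA, Mvk and Pmvk phosphorylate mevalonate, Mvd decarboxylates it, Idi1 isomerises the product and Fdps makes farnesyl diphosphate. Mean ratios were positive in 6 of these 7 genes, with a median of 0.065 (0.016 in replicate 1 and 0.11 in replicate 2), and 0 of 7 passed the test. Mvd, probed at chr8:124957750-124957809 (mm9), had ratios of -0.0099, 0.082, 0.48 and -0.049. Its signal in 15p exceeded that in 0p clearly on 1 array only, 2A. The mean was 0.13 ± 0.13 (SD, n = 2; limma, adjusted p = 0.749). Acat2 (chr17:13136482-13136541) had 0.25 on 1A and 0.35 on 2A, but -0.069 on 1B and -0.12 on 2B. The sign thus followed the dye on every array, and the mean was 0.10 ± 0.017 (limma, adjusted p = 0.750). Hmgcs1 showed the opposite order, with -0.16 on 1A, -0.14 on 2A, 0.17 on 1B and 0.23 on 2B, and a mean of 0.024 ± 0.027. Idi1, the only gene of this group with a negative mean (-0.083 ± 0.048), likewise had -0.16 on 1A and -0.45 on 2A, with 0.060 on 1B and 0.22 on 2B. Mvk, Pmvk and Fdps had means of 0.065 ± 0.063, 0.030 ± 0.061 and 0.092 ± 0.11, each under its interval's half-width.

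The sterol regulatory element was searched for in a strict form of the letters to which SREBPs bind, and variants of that form were not. Among the 25 members with a promoter sequence at hand, Hmgcs1 was the only one with a match in it to this form. Its promoter is shown for that reason, from RefSeq's GRCm38.p6, chr13:119690101-119690350 on the plus strand, 250 bases up to the start of the gene, with the match in capitals.
Hmgcs1 promoter: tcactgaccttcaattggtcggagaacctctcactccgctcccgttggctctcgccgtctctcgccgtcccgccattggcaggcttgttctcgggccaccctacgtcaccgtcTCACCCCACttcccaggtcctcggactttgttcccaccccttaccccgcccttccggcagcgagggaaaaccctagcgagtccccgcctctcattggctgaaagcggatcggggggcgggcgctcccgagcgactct
Windows of 300 bases (250 before and 50 after a start) were held for 25 of the 31 genes, 33 windows in all, some of which overlap within a gene. Fdps, Fdft1, Sqle, Stard4, Scd1 and Scd2 had no window. The element TCACNCCAC, on either strand, was in 1 of these 33 (3.03%) and in 1.24% of all 32851 promoter windows. The E-box CACGTG, which SREBPs also bind, was in 6 windows (18.2%) against 7.15%, in the genes Dhcr7, Hsd17b7, Insig1, Sc5d and Scap. The CCAAT box, bound by NF-Y, was in 22 (66.7%) against 37.4%, and the GC box GGGCGG, bound by Sp1, in 25 (75.8%) against 35.7%. Both are letters that partner factors of SREBPs bind, and at least 1 window of 21 of the 25 genes (84%) held CCAAT, against 41.1% of all 27025 genes. These shares are over all promoters held, not only those of genes above background here, and the differences were not tested. A match is a description of the letters and says nothing of binding in these cells.

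Squalene and lanosterol are made by Fdft1, Sqle and Lss, of which Sqle, squalene epoxidase, is a rate-limiting oxygen-requiring step. Means were positive in 2 of these 3 genes, and 0 of 3 passed the test. Sqle (chr15:59162688-59162747) had ratios of -0.20, 0.18, -0.40 and 0.16. It was negative with 15p in Cy5 and positive on both swaps, and the mean was -0.064 ± 0.079 (limma, adjusted p = 0.832). Lss (chr10:76015992-76016051), which closes the sterol ring, had 0.087, 0.19, 0.092 and -0.13, positive on 3 arrays, with a mean of 0.060 ± 0.11. Fdft1 had 0.084, -0.00016, 0.20 and -0.078, a mean of 0.051 ± 0.012.

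Lanosterol becomes cholesterol through the enzymes of 9 of the genes. Cyp51 removes the first methyl group, Tm7sf2 and Lbr are sterol C14 reductases, and Msmo1, Nsdhl and Hsd17b7 remove the remaining methyl groups. Ebp, Sc5d and Dhcr7 respectively move, add and reduce ring double bonds. Means were positive in 4 of 9, with a median of -0.0024, and 0 of 9 passed the test. Dhcr7 (chr7:151033874-151033933), which makes cholesterol from 7-dehydrocholesterol, was the only one of the 31 with an unadjusted p under 0.05 in the averaged pairs. With the replicate as a block Srebf2 was the only one and Dhcr7 was not, but that fit sets aside the opposite signs of Srebf2's replicates. The ratios of Dhcr7 were 0.028, 0.11, 0.58 and -0.11, so 3 arrays were positive and 1 lay far from the rest. On that array, 2A, its log2 signal was 10.35 in 15p and 9.78 in 0p, and on the dye swap 10.03 and 10.14. The mean was 0.15 ± 0.12 with a 95% interval from 0.016 to 0.28 (limma, adjusted p = 0.749). Without 2A the estimate was 0.013.

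Lbr encodes a protein of the inner nuclear membrane that binds lamin B and heterochromatin as well as reducing sterols. Its brightest probe had ratios of -0.064, -0.0050, -0.32 and -0.12, a mean of -0.13 ± 0.13 (limma, adjusted p = 0.749). A second, dimmer probe of the gene had 0.041, 0.094, 0.61 and -0.24, a mean of 0.13, and its largest value was on the array where the first probe was most negative. The sign of Lbr therefore depended on the probe, and the mean over both probes was 0.0013. The first 30 of 60 bases of each probe are shown because they measure the same transcript and gave opposite signs. The first lies at chr1:183745893-183745952 and the second at chr1:183746674-183746733, both on the minus strand of mm9.
Lbr first probe: gatagtttcccagtcactgtccctgagcag
Lbr second probe: ttctttttgccatttgatttttcttaattg
Msmo1 had -0.17, 0.094, -0.49 and 0.23, the same alternation with dye as Idi1 and Sqle, and a mean of -0.083 ± 0.068. Tm7sf2 had 0.22, -0.092, 0.11 and 0.20 (mean 0.11 ± 0.064), positive on 3 arrays. Nsdhl had -0.017, 0.12, 0.33 and -0.13 (mean 0.074 ± 0.031), and Cyp51 had 0.0037, -0.040, -0.31 and 0.075 (mean -0.068 ± 0.070). The means of Hsd17b7, Ebp and Sc5d lay between -0.0044 and 0.051. With their brightest probes, no array showed any of these 3 beyond 0.16 from 0. The second probe of Hsd17b7 read 0.20 on 1B and -0.17 on 2A.

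The regulators decide how much of the pathway is transcribed. Means were positive in 4 of the 5 regulators, all but Insig2, with a median of 0.12, and 0 of 5 passed the test. That median was carried by a single array: by array it was 0.0027, 0.0052, 0.49 and -0.064, and by replicate -0.012 and 0.21. Srebf2, the activator of the sterol genes, had ratios of -0.17, 0.0052, 0.77 and 0.13. The replicates were of opposite sign, -0.084 and 0.45, and the mean of 0.19 ± 0.38 had the widest interval of the 31 genes, from -0.040 to 0.41 (limma, adjusted p = 0.752). Log2 signals of 15p were 10.27, 10.34, 11.31 and 10.78, and those of 0p 10.44, 10.34, 10.54 and 10.65. The 15p signal of array 2A was the highest of these 8, and the other 7 lay between 10.27 and 10.78. Signals were normalised within arrays only, so those of different arrays are not on a common scale. Within 2A the 15p signal of 11.31 stood against 10.54 in 0p. Without that array the estimate was -0.051.

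Srebf2 has 2 probes, both on the plus strand of mm9, at chr15:82034765-82034824 (the brighter) and chr15:82030068-82030127. Their first 30 of 60 bases are shown because they disagreed on the array that set the mean.
Srebf2 brighter probe: aactaggtctttgcaccagagagcattttg
Srebf2 dimmer probe: atccagctgttcacctgtgacctgctactg
The dimmer probe had -0.11, 0.0020, 0.072 and -0.059, a mean of -0.025. On array 2A it thus read 0.072 where the brighter probe read 0.77. The mean over both probes was 0.080.

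Srebf1 (chr11:60012664-60012723), which encodes the SREBP that drives fatty acid genes, had 0.16, -0.10, 0.64 and -0.16. It was positive with 15p in Cy5 and negative on both swaps, and the mean was 0.13 ± 0.15 (limma, adjusted p = 0.749). Insig1 (chr5:28404246-28404305), itself an SREBP target whose product retains SCAP, had 0.0027, 0.051, 0.49 and -0.064, a mean of 0.12 ± 0.13 (limma, adjusted p = 0.749). It was near 0 on 3 arrays. Insig2 had 0.21, -0.24, -0.071 and -0.11, a mean of -0.052 ± 0.053, and its second probe had a mean of -0.18. Scap had -0.076, 0.051, -0.049 and 0.091, a mean of 0.0044 ± 0.024.

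Stard4, which carries sterol between membranes, had 0.28, -0.019, 0.061 and -0.083. It was positive with 15p in Cy5 and negative on the swaps, and the mean was 0.061 ± 0.10 (limma, adjusted p = 0.837).

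Fatty acid synthesis had the lowest median of the role groups in the mean ratios, but not on every array. Acly makes cytosolic acetyl-CoA, Acaca turns it into malonyl-CoA, Fasn builds palmitate, Elovl6 lengthens it, and Scd1 and Scd2 add a double bond. Means were negative in 5 of these 6 genes, all but Acly, with a median of -0.067 (-0.028 in replicate 1 and -0.094 in replicate 2), and 0 of 6 passed the test. By array the median was -0.0013, -0.065, -0.19 and -0.0065, with 3, 1, 1 and 3 of 6 positive, and without 2A it was -0.028 with 2 of 6 positive. On 1A the mevalonate group (-0.11) and the genes after lanosterol (-0.017) were lower. On 2B so were the regulators (-0.064), the squalene group (-0.078) and Stard4 (-0.083), which alone makes up the transport group. Over the 25 sterol genes the median was 0.051, with 17 of 25 positive. The difference between the 2 routes was not tested, and no member of either passed.

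Scd2 (chr19:44381024-44381083), the desaturase widely expressed outside the liver, had ratios of 0.032, -0.066, -0.28 and -0.19. Both arrays of replicate 2 were negative and those of replicate 1 near 0, and the mean was -0.13 ± 0.15 (limma, adjusted p = 0.749). Scd1 (chr19:44469387-44469446), the desaturase of sebaceous glands, had 0.12, -0.10, -0.16 and -0.10, a mean of -0.058 ± 0.098. On 1A its log2 signal was 11.1 in 15p and 10.97 in 0p, and on 1B 11.06 and 11.17. On 2A it was 11.01 and 11.17, and on 2B 11.36 and 11.46. Elovl6 (chr3:129341248-129341307) had -0.30, 0.16, -0.32 and 0.14. The 2 orientations cancelled to a mean of -0.078 ± 0.016 (limma, adjusted p = 0.799), an SD that leaves out the gap between the arrays of a pair. Fasn had -0.035, -0.045, -0.10 and 0.0068, a mean of -0.044 ± 0.0055, and Acly 0.14, -0.10, 0.026 and -0.020, a mean of 0.011 ± 0.011.

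Acaca was measured by 4 probes, with means from -0.18 to -0.042, all negative. The 2 brightest overlap almost wholly, at chr11:84215093-84215152 and chr11:84215094-84215153 (mm9, plus strand), and share 57 of 60 bases at an offset of 1 base. Their first 30 bases are shown, with the letters common to both printed fragments in capitals, because the pair measures how closely near-identical probes repeat on one array.
Acaca first probe: gCTTCAGTCCAATGCACTCTTCTCACGTTT
Acaca second probe: CTTCAGTCCAATGCACTCTTCTCACGTTTt
The first had -0.039, -0.065, -0.23 and 0.031, and the second -0.065, -0.056, -0.24 and 0.036. Within an array they differed by at most 0.026, and their means by 0.0057. The same pair spread from -0.24 to 0.036 across arrays, so these 2 spots differed far less within an array than either did between arrays. The spread between arrays also takes in dye order and replicate, and no other probes of a member overlapped. The mean of the first was -0.076 ± 0.034 (limma, adjusted p = 0.804).

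**Figure D2:**
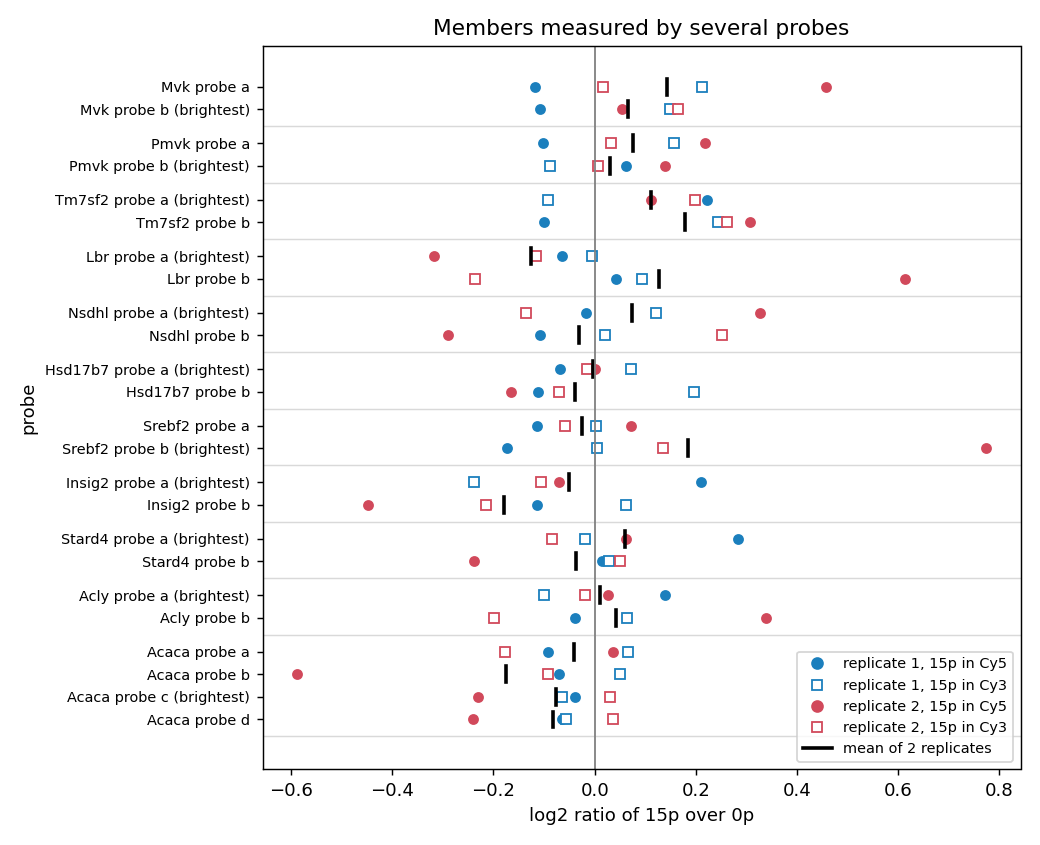
Log2 ratio of 15p over 0p (x axis) for every kept probe of the 11 genes with several (y axis, probes of a gene adjacent and ordered by position). Symbols are as for the single genes, with blue for replicate 1, red for replicate 2, filled circles for 15p in Cy5, open squares for the swap and a black bar for the mean. The probes of Lbr (-0.13 and 0.13) and Srebf2 (0.19 and -0.025) differ in sign, mainly through the red circles.

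Among the 11 genes with several kept probes, the means differed most for Lbr (by 0.254) and Srebf2 (by 0.210). Differences were 0.127 for Insig2, 0.133 over the 4 probes of Acaca, and 0.030 to 0.105 for the other 7. Nsdhl (-0.031 and 0.074) and Stard4 (-0.036 and 0.061) also had probes of both signs. Mvk, Pmvk, Tm7sf2 and Acly were positive with both of their probes, and Hsd17b7 and Insig2 negative with both. These differences were as large as most of the means themselves.

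Much of the signal in these ratios went with the dye, in the 31 genes about as in all genes. A dye coefficient, the log2 excess of Cy5 over Cy3 signal that does not change with the swap, was larger in size than the mean ratio of 15p over 0p in 22 of 31 genes (71%), against 66.4% of all genes. Red was brighter on all 4 arrays for 5 of the 31 (Acat2, Fdft1, Srebf1, Stard4 and Acly), against 18.1% of all genes. Green was brighter on all 4 for 7 (Hmgcs1, Idi1, Sqle, Msmo1, Sc5d, Scap and Elovl6), against 14.1%. At an unadjusted p under 0.05 in limma, 2 of the 31 were brighter in Cy5 (8.45% of all genes) and 5 in Cy3 (5.56%).

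The largest dye coefficient was that of Srebf1, 0.27 (limma, adjusted p = 0.0626), followed in size by -0.25 for Msmo1 (limma, adjusted p = 0.101). Sqle had -0.24, Elovl6 -0.23, Idi1 -0.22, Acat2 0.20 and Hmgcs1 -0.17. Adjusted over all genes, 2.55% of genes passed for Cy5 and 1.25% for Cy3, and 0 of the 31 in either direction. In these 7 genes the size of the dye coefficient was above that of their ratio of 15p over 0p, which ranged from -0.083 to 0.13. The base composition of the probes was alike, with a median GC content of 43.3% for the members and for all genes. Across all genes GC content correlated with the dye coefficient at r = 0.034 and with the ratio of 15p over 0p at r = 0.16, and across the 31 at 0.16 and 0.33. These are descriptions over genes that share arrays and dyes. The part of base composition in the ratios was not tested.

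**Figure D3:**
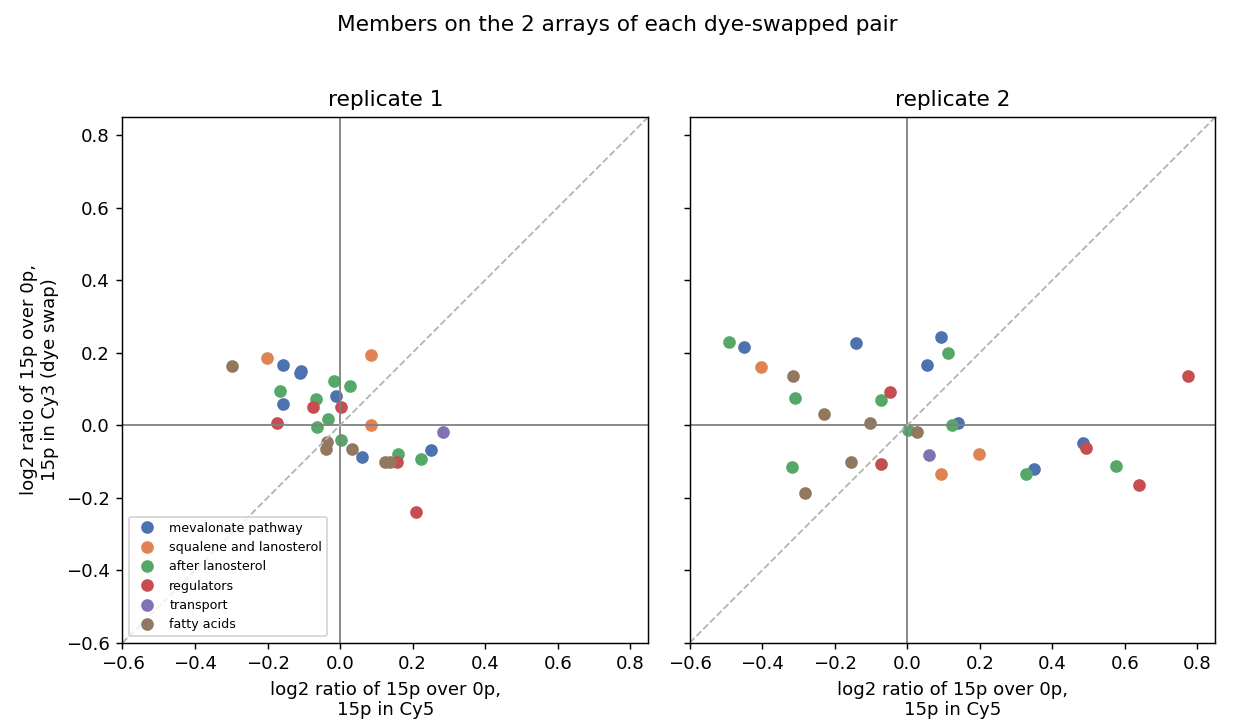
Log2 ratio of 15p over 0p of the 31 genes on the array with 15p in Cy5 (x axis) against the same ratio on its dye swap (y axis), for replicate 1 (left) and replicate 2 (right), coloured by role. A gene that differed between the RNAs alone would lie on the dashed line of equal values, but the points run from upper left to lower right, with r of -0.686 and -0.370.

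**Figure D4:**
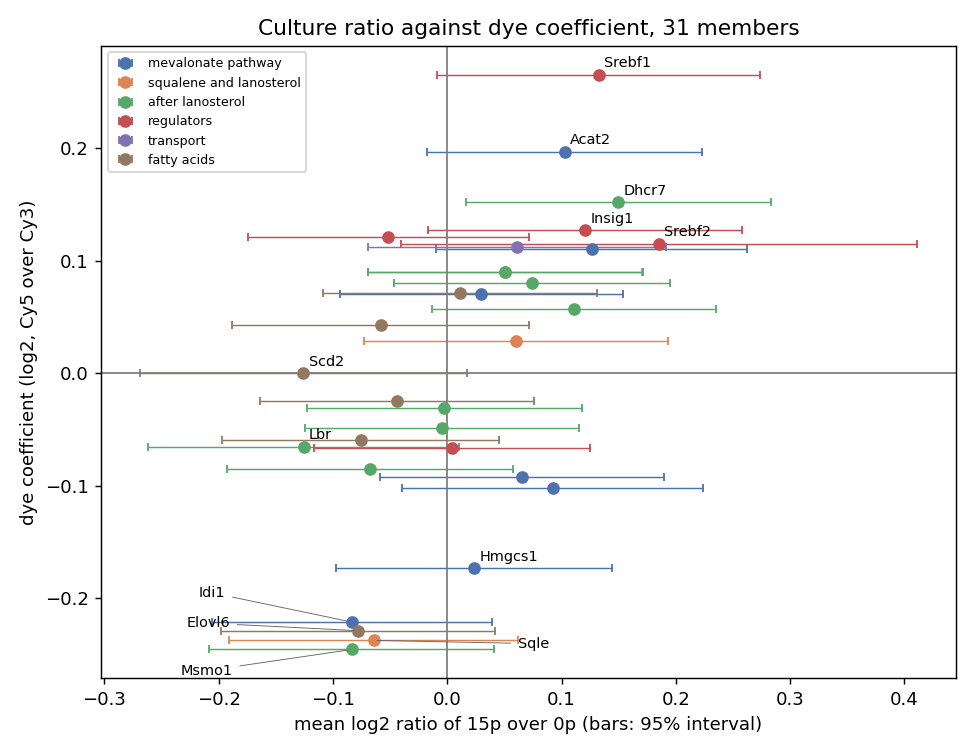
Mean log2 ratio of 15p over 0p (x axis, bars showing the 95% interval of the limma fit, n = 2 replicates) against the dye coefficient (y axis, log2 of Cy5 over Cy3), for the 31 genes coloured by role. All intervals but that of Dhcr7 (0.016 to 0.28) include 0, while the dye coefficients reach from -0.25 for Msmo1 to 0.27 for Srebf1.

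With the dye averaged out, the replicate ratios had a Pearson's r of 0.24 and a Spearman's rho of 0.51 across the 31 genes, against 0.089 and 0.17 across all genes. These are descriptions over genes that share arrays. Both replicate ratios were positive in 13 of 31 (29.8% of all genes) and both negative in 11 (27.2%). The largest ratio of a gene, in size, fell on array 2A in 20 of 31 genes, against 56.8% of all genes.

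Leaving out single arrays showed how much rested on that array. Without 1A, 8.83% of all genes were called higher and 9.12% lower, and 5 of the 31 were then called higher and 2 lower. These were Srebf2 (0.42, limma adjusted p = 4.2e-09), Dhcr7 (0.29), Srebf1 (0.25), Mvd (0.25) and Insig1 (0.24), and on the lower side Scd2 (-0.20) and Lbr (-0.19, adjusted p = 0.0232). In that fit 2A is the only array of its orientation, the remaining spread comes from 1 degree of freedom per gene, and limma set a single variance for all genes. Over all the alternatives the adjusted p of Srebf2 ran from 4.2e-09 to 1 and that of Lbr from 0.0232 to 1. Without 2A, 0.242% of genes were called higher and 0.265% lower, and none of them was among the 31. Without 1B there was no call (0%), and without 2B there was 1, lower and no member (0.00576%). The values without 2A were 0.012 for Srebf1, -0.0019 for Insig1, 0.0033 for Mvd, -0.063 for Lbr and -0.047 for Scd2.

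The scanner software's own test of each spot pointed to the same array. In the authors' deposited values, at a p under 0.01 per spot, 0 of the 45 spots differed between the dyes on the other 3 arrays. Of all spots there, 0.353% were brighter in 15p and 0.263% in 0p on 1A, 0.112% and 0.181% on 1B, and 0.674% and 0.939% on 2B. On 2A, 5 spots were brighter in 15p in the authors' deposited table (3.71% of all spots), those of Dhcr7, Insig1, Srebf1, the brighter Srebf2 probe and the second Lbr probe. There 1 spot was brighter in 0p (3.51% of all spots), a dim probe of Acaca. This p covers the error within a spot and not that between replicates.

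Neighbouring pathways gave no call either, with 0 of 74 tested genes on 6 further lists passing the test. Of 9 tested genes of the isoprenoid branches, which make prenyl groups, dolichol and ubiquinone, 4 had positive means, with a median of -0.0036. Fntb, a subunit of protein farnesyltransferase, had 0.13 ± 0.11 (limma, adjusted p = 0.749), and Dhdds, of dolichol synthesis, 0.13 ± 0.13. Of 9 genes that process SREBPs or degrade INSIGs and sterol enzymes, 7 were positive, with a median of 0.028. The largest were Faf2 (0.059 ± 0.053) and Erlin1 (0.059 ± 0.062), and Erlin1 was positive on all 4 arrays.

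Sterol transport, storage and oxysterol genes were positive in 9 of 16, with a median of 0.0049. Npc1, which exports cholesterol from lysosomes, had -0.0088, -0.052, -0.29 and -0.10, negative on all 4 arrays, and a mean of -0.11 ± 0.12 (limma, adjusted p = 0.750). Soat1, which esterifies cholesterol for storage, was also negative on all 4 arrays, with a mean of -0.036 ± 0.040. Lipa, the lysosomal lipase that frees cholesterol from its esters, had -0.11 ± 0.19. Further genes of fatty acid and lipid synthesis were positive in 12 of 21, with a median of 0.018. Slc25a1, which exports citrate from mitochondria for this route, had 0.11, 0.031, 0.52 and -0.034, a mean of 0.16 ± 0.12 (limma, adjusted p = 0.749). Acacb, the mitochondrial relative of Acaca, had 0.097 ± 0.060 and was positive on all 4 arrays.

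Fatty acid oxidation, the opposite route, was positive in 13 of 14 tested genes (51.4% of all genes), with a median of 0.015 against 0.0025 over all genes. By array, 9, 6, 10 and 9 of the 14 were positive, and the median was negative on 1B (-0.033). Hadha, a subunit of the mitochondrial trifunctional protein, had 0.093, 0.27, 0.55 and 0.085, positive on all 4 arrays, and a mean of 0.25 ± 0.096 (limma, adjusted p = 0.749). Hadh, which oxidises shorter chains, had -0.078, 0.18, 0.64 and 0.092, a mean of 0.21 ± 0.22. Of the 5 redox partners that feed electrons to sterol and fatty acid enzymes, 3 were positive, with a median of 0.0067. Cyb5r3 had 0.088 ± 0.010 and Cyb5a 0.030 ± 0.034.

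The labelled cell type was checked against its markers. All 8 genes listed for basal keratinocytes were well above background on all 4 arrays in both RNAs, with log2 ratios of 0.00042 for Krt5, 0.19 for Krt14, -0.026 for Trp63 and 0.025 for Itga6, which encodes CD49f. The largest ratio of the 8 was 0.205 for Cdh3, with 0.45 (1A), -0.28 (1B), 1.10 (2A) and -0.45 (2B). Cd34, the other gene of the sort, was above background on 0 arrays in 15p and on 1 in 0p, and the bulge genes Lgr5 and Lhx2 on none. Of the 7 bulge genes listed, 3 were above background on all 4 arrays in both RNAs. These were Krt15 with a ratio of 0.17, Nfatc1 with -0.053, and Sox9 with -0.38, whose value on 2A was -1.56 and on the other arrays 0.14 (1A), -0.059 (1B) and -0.053 (2B). Of 13 sebocyte genes, markers of the lipid-producing gland cell, 7 were well above background on all arrays in both RNAs, with ratios from -0.019 to 0.067. The 7 were Pparg, Mc5r, Plin2, Fabp5, Prdm1, Krt79 and Dgat2. The summed signal of the list ranged over 53270 to 73180 in 15p and 53350 to 69830 in 0p. That sum takes in the genes not above background, and a few bright genes can set it. Its ranges also pool arrays that were normalised only within themselves, so it is no measure of sebocyte content. The sebocyte genes Awat1, Awat2, Plin5, Elovl3 and Cidea were above background on no array. Of 8 adipocyte genes 2 were above background throughout, and Lep, Plin1 and Cidec on no array. Of 7 differentiated keratinocyte genes 5 were above background throughout, with ratios from -0.025 to 0.20. The same held for 4 of 7 immune, 4 of 6 endothelial, 2 of 7 fibroblast and 2 of 5 melanocyte genes. The part of other cell types in the ratios was not tested.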

How the data were processed

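Gene expression was measured on 4 Agilent 2-colour whole mouse genome arrays, 2 replicates each with a dye swap. The deposited scanner files hold mean spot and local background intensity per dye, extracted with Agilent Feature Extraction 10.7.3.1 per the file headers. Their processed intensity is background-subtracted and dye-normalised per the file headers. A log10 ratio of Cy5 over Cy3 processed intensity and its p-value per spot are also deposited, as named per the file headers. Flags of 0 or 1 mark spots well above background, saturated or irregular, per the file headers. The series' value table holds the same deposited log10 ratios, not turned for the dye swap (largest difference 0.00449, column medians 0), and was used as an alternative.

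In R 4.3.3 with limma 3.58.1 (with data.table, version 1.17.8, and statmod 1.5.0), intensities were corrected by normexp (offset 50) and normalised by loess within arrays, with control spots at weight 0. Irregular spots were left out (154 to 286 of 43020 per array). Spots of a probe were averaged. A probe needed a signal well above background in 15p or in 0p on every array (21660 of 39429 passed), and the brightest probe stood for its gene. Symbols came from RefSeq's GRCm38.p6 table by accession for 26055 probes (3358 renamed) and otherwise from the files. Probe positions are the files', in mm9. No mm9 annotation was used, so exon or UTR is not given.

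Ratios were turned to 15p over 0p by the labelled dyes, dye-swapped pairs were averaged, and the 2 replicate values were tested against 0 (lmFit, eBayes, two-sided, Benjamini-Hochberg over all genes at 0.05; residual degrees of freedom 1, prior 8.88). Tested on simulated data made for this comparison (17376 genes), the script called 100% of genes changed by 0.5, 1 or 2 (log2) and 0 of 17176 unchanged genes. The simulated noise was independent, had each gene's spread as fitted by limma and was equal on all 4 arrays, while the real array 2A was wider. The simulation checks the script and does not show what size of change these data could detect. The dye coefficient came from a fit of 4 arrays with a replicate block, whose error leaves out the difference between replicates and has a single variance for all genes. A swap carries its replicate's number in the titles. Each replicate had its own slide, so the 2 cannot be told apart and each replicate's value is a within-slide value. Deviations of same-numbered arrays from their orientation's mean correlated at -0.258 across genes.

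Genes, lists and tests were chosen with earlier results of these data known. Values on each array are given for genes with an unadjusted p under 0.05, the same sign on all 4 arrays or the 2 largest means of a role group, for Srebf1, Srebf2, Insig1, Insig2, Scd1 and Scd2, and for others where a pattern is described; of each further list, the 2 genes with the largest means are named, and others for a sign shared by all 4 arrays. Alternatives were the processed signals, median centring, no dim filter, the mean of kept probes, a replicate block with dye term, separate channels, the value table, leaving out arrays or replicates, and, added after seeing the data, crossed pairing. Promoters are RefSeq's, GRCm38.p6.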

Additional observations from a re-analysis of the deposited data

How the results depend on the processing

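The count of genes called was 0 in each direction under the processed signals, median centring, the mean of kept probes, separate channels, the value table and without array 1B. Without the filter on dim probes it was 0 higher and 1 lower. The replicate block with a term for dye called 7 higher and 53 lower, and the crossed pairing, chosen after seeing the data, gave 7 and 53 as well, because it leaves the same residual contrast. Leaving out 1 array at a time gave 0 to 1535 genes higher and 0 to 1585 lower, with 0 to 5 of the 31 higher and 0 to 2 lower. All of the calls among the 31 came without array 1A, and the cause was not tested. The median ratio of the 31 was 0.024 in the reported fit. It was 0.034 with the processed signals, 0.034 with the value table, 0.076 with median centring (0.025 over all genes) and 0.021 with the mean of kept probes. It was 0.0033 without replicate 1 (0.0048 over all genes) and 0.0046 without replicate 2 (0.0011 over all genes), and 0.0080 to 0.015 without single arrays, each more than 1.5 times below the reported value. The block changed no call among the 31. With 2 replicates, 1 residual degree of freedom remains per gene. The intervals add to it the 8.88 prior degrees of freedom that limma drew from all genes. Differences within the interval half-widths of 0.12 to 0.23 could not be detected here. Those intervals are not adjusted for the number of genes tested, so the limit for a call lay higher. Dhcr7, at 0.15 with an interval that excludes 0, was not called. Dim probes, such as the second ones of Lbr and Srebf2, lie closer to background than the brightest ones.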
